A study of Mus musculus with 6 samples.

Results

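Crystallin genes were examined in cultured mouse retinal ganglion cells (RGCs), the neurons that carry visual signals from the eye to the brain, after transduction with adeno-associated virus (AAV). The genes were *Cryba1*, *Cryba2*, *Cryba4*, *Crybb1*, *Crybb2*, *Crybb3*, *Crygs*, *Cryaa*, *Cryab* and *Crym*, 10 of the 43346 Ensembl genes in the tables, and all were found by symbol. The set was built around *Cryba2*, which was chosen by its counts, absent with control AAV and present with both Sox11 viruses, and the question was whether the other 9 genes followed it. That contrast of *Cryba2* is therefore given as a description without a test.

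Crystallins are the abundant soluble proteins of the eye lens. The α-crystallins *Cryaa* and *Cryab* are small heat shock proteins that hold unfolding proteins in solution, while the β- and γ-crystallins form a separate family of compact structural proteins that pack the lens fibre cells. Several crystallins are also made outside the lens, *Cryab* in muscle and glia among other places. *Crym* (mu-crystallin) is unrelated to the other 9 in sequence and binds thyroid hormone in the cytosol.

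The RGCs came from C57BL/6 mice of both sexes and were purified by immunopanning. They received a control AAV for EGFP, an AAV for Sox11 with EGFP, or an AAV for Sox11K91A with EGFP, in which a lysine of Sox11 is changed to alanine so that SUMO cannot be attached there, and each group had 2 replicates. Sox11 is a transcription factor of developing neurons. AAV was added 4 h after plating to 250000 cells per well at 100000 vg per cell, and RNA was taken at 72 h. The methods name embryonic day 18 as the age of the RGCs for RNA-seq, the labels give this age and also postnatal day 2, the file names give postnatal day 0, and the promoter of the viruses was not given in the sources used here. Nothing says that replicates were separate cultures, so p-values measure only the spread between these libraries. Replicates of control and of Sox11 differed in *Xist* and Y-linked transcripts, as given below, and the source of the spread was not tested.

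Expected counts summed to between 27521981 and 37061718 per library. *Sox11* had 6544 and 12786 counts in the control libraries, 252161 and 483694 in the Sox11 libraries and 385765 and 204868 in the Sox11K91A libraries, so all 6 matched their labels as control or as carrying a Sox11 virus. These counts do not separate Sox11 from Sox11K91A, nor virus from cell transcripts. Counts of *Xist*, the transcript of the inactive X chromosome, were lowest in the second replicates of control and Sox11 (3697 and 8413, against 11191 to 16303 in the other 4), and the fold changes of the crystallins tested are given with and without them. The Y-linked genes *Ddx3y*, *Eif2s3y*, *Kdm5d* and *Uty* had their highest counts in these same libraries. For *Eif2s3y* these were 969 in control and 1124 with Sox11, against 214 to 406 in the other 4. All 12 RGC marker genes had counts in every library. Their summed level was 14008 and 13300 CPM (counts scaled to library size) with control AAV, 8408 and 5218 CPM with Sox11 and 6798 and 8885 CPM with Sox11K91A, most of it *Nefl* and *Nefm*. By the test used below, 4 of the 12 were lower with Sox11 and 2 with Sox11K91A, where 10.2% and 4.81% of all genes tested were lower. The log2 fold change was above 0 for 4 of the 12 in each comparison, and the median of the 12 was -0.18 and -0.15. The summed level of 8 Müller glia and astrocyte markers was 231 and 294 CPM in control and 471 to 496 CPM with either virus, most of it *Glul* and *Vim*. Of the 6 tested, *Glul* rose with both viruses and *S100b* fell with Sox11 (mean 0.466 CPM in control and 0.0364 CPM with Sox11, a gene near the filter on low counts). The glial genes *Rlbp1* (2.44, 0.438 and 0.325 CPM in control, Sox11 and Sox11K91A) and *Slc1a3* (0.953, 0.278 and 0.537 CPM) were at lower means with both viruses without passing the test. *Aldh1l1* (0.695, 1.33 and 1.41 CPM) and *Vim* (157, 188 and 192 CPM) were at higher means with both viruses, also without passing. In each comparison 3 of the 6 had a log2 fold change above 0. *Gfap* had no counts in any library. Of the other lists, the summed level in control, Sox11 and Sox11K91A was 102 to 259, 39.0 to 122 and 104 to 114 CPM for 9 amacrine cell markers, 90.9 to 109, 40.3 to 56.4 and 51.0 to 62.8 CPM for 6 bipolar cell markers, and 4.69 to 5.58, 7.54 to 9.97 and 8.91 to 11.6 CPM for 6 endothelial cell and pericyte markers. Most of the bipolar sum was *Prkca* (means 97.9, 47.0 and 54.8 CPM), and the largest part of the amacrine sum was *Gad2* (105, 36.6 and 38.4 CPM). Of 8 amacrine markers tested, 4 with Sox11 and 5 with Sox11K91A had a log2 fold change above 0. For the 4 bipolar markers tested, it was 1 in each comparison. Markers of photoreceptors were at or below 4.12 CPM and those of microglia at or below 1.36 CPM in sum in every library, and *Rcvrn*, *Vsx1*, *Tyr* and *Ttr*, markers of photoreceptors, bipolar cells and pigment epithelium, had no counts. In bulk RNA, fewer cells of a type and less RNA per cell cannot be told apart, and the part of these shifts in the crystallin values was not tested.

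*Cryba2* lies at chr1:74889934-74893143 on the minus strand (GRCm38) and its coding transcript has 720 bases in 5 exons. The 250 bases before its start, at chr1:74893144-74893393, are shown with those of *Cryba4* (chr5:112252519-112252768) and *Crybb3* (chr5:113081585-113081834), the β-crystallins with the most counts in the control libraries, since the counts of *Cryba2* lay with the viruses and those of the other 2 mainly in control. All 3 are on the minus strand, from RefSeq on GRCm38.p6, read 5′ to 3′ in the direction of the gene. Capitals mark TGCTGA, the core that large Maf factors of the lens bind, the longer TGACTCAGC, which joins an AP-1 core to a Maf element, and the Sox core ACAAAG with the related cores of Sox factors, ACAATG being the commoner of them and ACAATA the rarer, each on either strand.
Cryba2: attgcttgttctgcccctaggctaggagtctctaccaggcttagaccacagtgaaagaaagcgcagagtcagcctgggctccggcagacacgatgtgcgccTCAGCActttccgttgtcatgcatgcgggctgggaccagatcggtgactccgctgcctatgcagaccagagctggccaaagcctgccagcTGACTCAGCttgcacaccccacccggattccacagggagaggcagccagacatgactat
Cryba4: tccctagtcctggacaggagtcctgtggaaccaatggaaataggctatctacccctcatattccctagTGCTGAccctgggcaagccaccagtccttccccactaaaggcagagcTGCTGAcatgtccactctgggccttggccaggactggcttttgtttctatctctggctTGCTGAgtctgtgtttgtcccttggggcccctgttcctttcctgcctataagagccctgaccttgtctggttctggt
Crybb3: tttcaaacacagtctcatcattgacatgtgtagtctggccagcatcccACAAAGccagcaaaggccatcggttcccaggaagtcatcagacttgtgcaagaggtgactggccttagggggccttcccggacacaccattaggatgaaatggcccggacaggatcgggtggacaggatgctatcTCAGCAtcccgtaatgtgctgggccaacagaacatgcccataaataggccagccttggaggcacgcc
*Cryba2* held TGACTCAGC between 59 and 51 bases before the start and TGCTGA on the opposite strand between 149 and 144 bases before it, with no Sox core in this window. *Cryba4* held TGCTGA at 3 places. *Crybb3* held it once, on the opposite strand between 67 and 62 bases before the start, and held ACAAAG between 202 and 197 bases before it. Of 32851 promoter windows of the same length, TGACTCAGC was in 0.390% (128), TGCTGA in 16.1%, ACAAAG in 16.5%, ACAATG in 10.7% and ACAATA in 8.17%. TGACTCAGC was added after the sequence was seen and contains no TGCTGA. A match of letters is a description and not a binding site. Of the 10 genes, 8 had an entry among these windows, and *Cryab* and *Crym* had none.

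*Cryba2*, a βA-crystallin, had 0 and 0 counts in the control libraries, 107 and 196 counts in the Sox11 libraries and 190 and 83 counts in the Sox11K91A libraries. Each of the 4 libraries with a Sox11 virus thus held counts, and neither control library held any. These counts came to 3.89 and 5.91 CPM with Sox11 (mean 4.90 ± 1.43, SD, n = 2) and 5.89 and 2.85 CPM with Sox11K91A (mean 4.37 ± 2.16, SD, n = 2). Against a floor of 3 counts in each control library, the one-sided 95% limit of a count of 0, *Cryba2* was at least 53.0-fold higher with Sox11 and at least 47.2-fold higher with Sox11K91A. The floor covers counting error only. Without 1 replicate of either group these bounds ran from 42.1 to 63.9 and from 30.7 to 63.7.

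The counts of *Cryba2* came mostly from its coding transcript. The gene has a second transcript of 923 bases that is annotated for nonsense-mediated decay, and the mean length that RSEM assigned places 93.9% and 98.2% of the transcripts of the Sox11 libraries and 98.1% and 90.6% of those of the Sox11K91A libraries on the coding form. No other gene's transcript matched that of *Cryba2* at 95% identity over 50 bases or more, its longest match being *Cryba1* at 65.4% identity over 376 bases. The genes on either side had at most 9 counts in any library, too few for their patterns to be compared with that of *Cryba2*. *Fev*, a transcription factor of serotonin neurons that starts 4515 bases away, had 0 and 0 counts in control, 1 and 7 with Sox11 and 2 and 0 with Sox11K91A. *Cfap65*, a gene of cilia and flagella 8928 bases away on the other side, had 6 and 9 counts in control and between 1 and 4 with either virus.

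**Figure D1:**
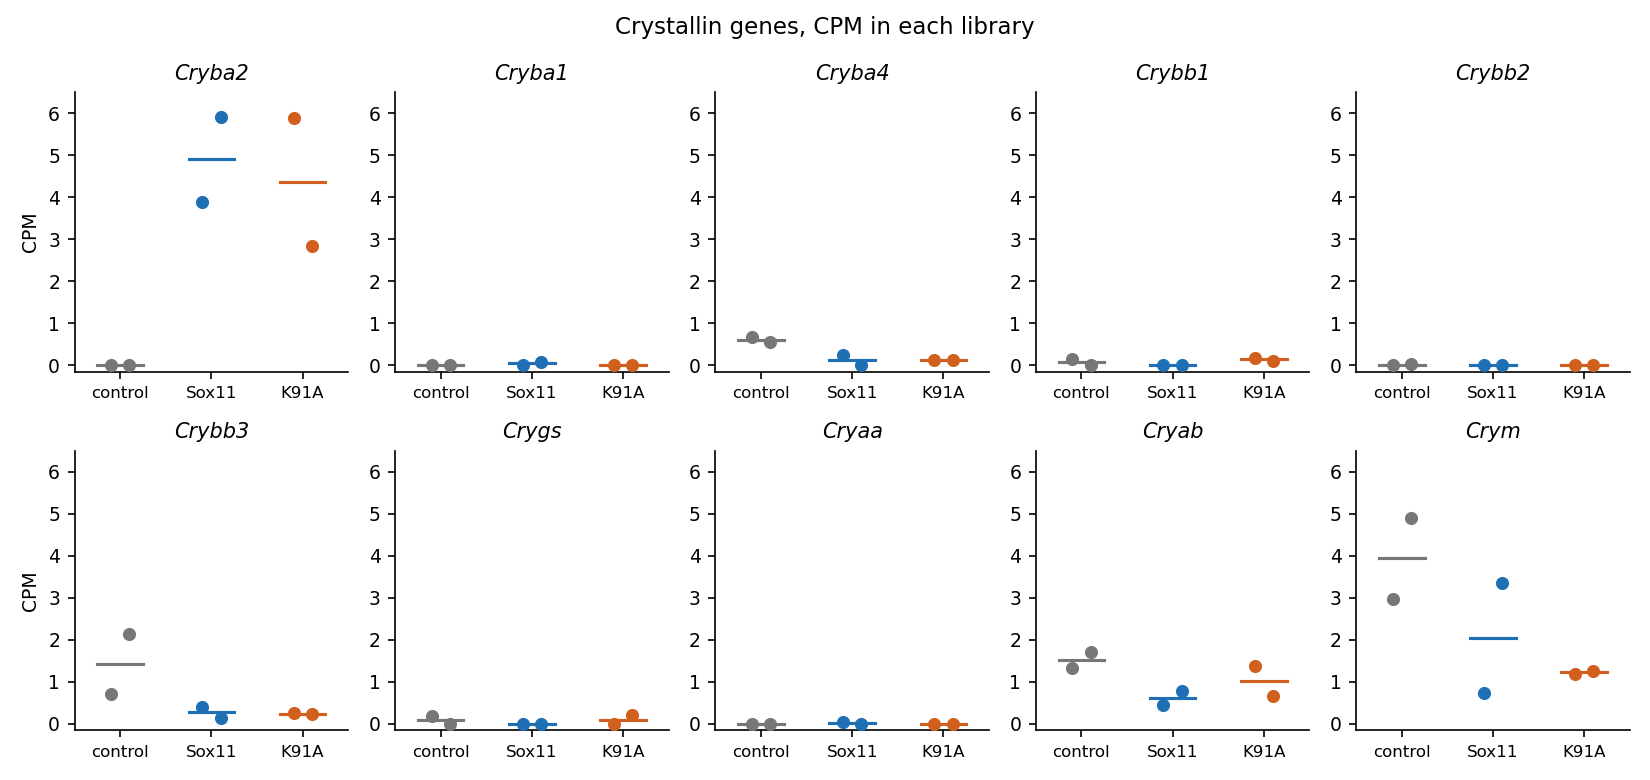
Level of each crystallin gene in CPM (vertical axis, the same scale in all panels) in the 2 libraries of each group, with a line at the group mean. Points of *Cryba2* lie at 0 in control and between 2.85 and 5.91 CPM with either virus, while *Cryba4*, *Crybb3*, *Cryab* and *Crym* have their highest points in control.

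Among the 4 libraries with a Sox11 virus, *Cryba2* was higher where *Sox11* was higher. *Sox11* was at 9174 and 14585 CPM in the Sox11 libraries and 11966 and 7023 CPM in the Sox11K91A libraries. The number of *Cryba2* counts per 1000 *Sox11* counts was 0.424 (95% interval 0.348 to 0.513) and 0.405 (0.350 to 0.466) with Sox11, and 0.493 (0.425 to 0.568) and 0.405 (0.323 to 0.502) with Sox11K91A, with exact Poisson intervals of the *Cryba2* count that cover counting error only. The highest ratio was 1.22 times the lowest, whereas the levels of *Cryba2* and of *Sox11* each differed 2.08-fold among these libraries. Of 11965 genes with at least 50 counts in all 4 libraries, 48 (0.401%) had a ratio to *Sox11* at least as even as that of *Cryba2*. This ratio was chosen after the values were seen and is a description of 4 libraries. In the control libraries, 0 counts of *Cryba2* allowed a ratio of up to 0.458 and 0.235 per 1000 counts of the cells' own *Sox11*. These limits are one-sided at 95%, and so tighter than the two-sided intervals above. The *Sox11* counts of the virus libraries include virus transcripts, so their ratios and these limits are not a like measure. The ratios of the virus libraries were all above the limit of replicate 2. They lay too close to that of replicate 1 to be set apart from it.

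**Figure D2:**
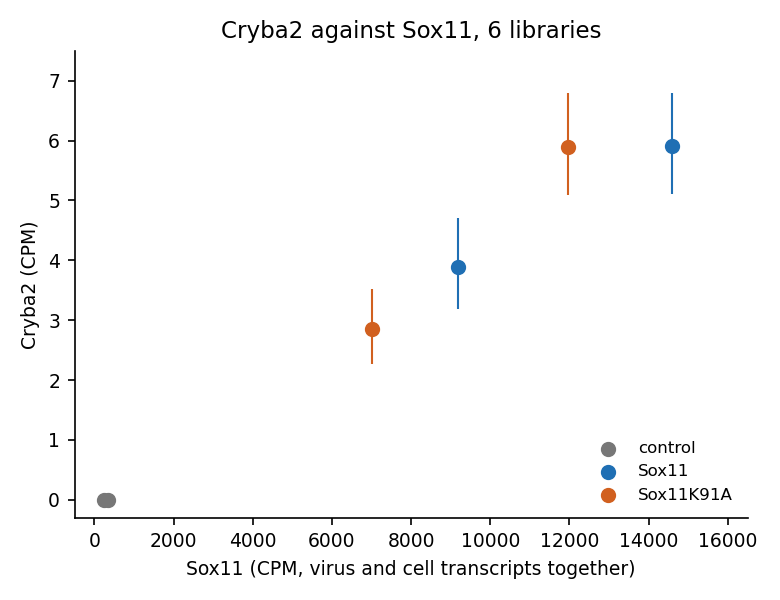
*Cryba2* against *Sox11*, both in CPM, in the 6 libraries, with 95% exact Poisson intervals of the *Cryba2* count as bars on the 4 libraries with counts. Both control libraries lie at 0 for *Cryba2*, and the other 4 rise from 2.85 CPM at the lowest *Sox11* level to 5.89 and 5.91 CPM at the highest.

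None of the other β-crystallins had this pattern. *Cryba1*, the closest to *Cryba2* in sequence, had 3 counts in Sox11 replicate 2 and 0 in the other 5 libraries. *Cryba1* lies inside *Nufip2* on the opposite strand, and whether counting used strand was not given in the sources used here. *Crybb1* had 4 and 0 counts in control, 0 and 0 with Sox11, and 6 and 3 with Sox11K91A. *Crybb2* had 1 count in control replicate 2 and 0 elsewhere. At these counts no difference between groups was detectable.

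*Cryba4* and *Crybb3* were present at low counts in the control libraries. *Cryba4* (chr5:112246493-112252518) had 19 and 21 counts in control, 7 and 0 with Sox11, and 4 and 4 with Sox11K91A, or 0.680 and 0.545 CPM against 0.255 and 0 CPM and 0.124 and 0.137 CPM. All 4 libraries with a Sox11 virus lay below both control libraries. The log2 fold change was -3.37 (SE 1.17, adjusted p = 0.0822) with Sox11 and -2.07 (SE 0.98, adjusted p = 0.204) with Sox11K91A in the limma-voom fit over 15747 genes. *Crybb3* (chr5:113075839-113081584) had 20 and 82 counts in control, 11 and 5 with Sox11, and 8 and 7 with Sox11K91A, or 0.715 and 2.13 CPM against 0.400 and 0.151 CPM and 0.248 and 0.240 CPM. Both control libraries again lay above the other 4, although they differed from each other more than the lower of them did from Sox11 replicate 1. The log2 fold change of *Crybb3* was -2.38 (SE 0.84, adjusted p = 0.0848) with Sox11 and -2.36 (SE 0.84, adjusted p = 0.113) with Sox11K91A. Per transcript length the order was less clear, since *Crybb3* in Sox11 replicate 1 was at 3.36 TPM, between the control values of 2.83 and 6.64 TPM. *Crybb3* has 11 annotated transcripts, and RSEM set its length in each library.

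Both genes have a crystallin neighbour on chromosome 5. *Cryba4* lies 3297 bases from *Crybb1* on the opposite strand, and *Crybb3* lies 5722 bases from *Crybb2*. *Crybb1* and *Crybb2* had at most 6 counts in any library.

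Of the α-crystallins, *Cryaa*, which overlaps the antisense gene AC090881.2, had 1 count in Sox11 replicate 1 and 0 in the other 5 libraries. *Cryab* (chr9:50751325-50756636) had 37 and 66 counts in control, 12 and 26 with Sox11, and 44 and 19 with Sox11K91A, or 1.32 and 1.71 CPM, 0.437 and 0.784 CPM, and 1.36 and 0.651 CPM. Both Sox11 libraries lay below control, and Sox11K91A overlapped control. The log2 fold change of *Cryab* was -1.33 (SE 0.56, adjusted p = 0.130) with Sox11 and -0.66 (SE 0.50, adjusted p = 0.421) with Sox11K91A. *Cryab* shares sequence with the overlapping gene *Hspb2*, which had 3 counts in control replicate 2 and 0 elsewhere. *Crygs*, a γ-crystallin of the lens cortex, had 5 counts in control replicate 1, 6 in Sox11K91A replicate 2 and 0 in the other 4 libraries.

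*Crym* (chr7:120186380-120202111) had the highest counts of the 10 genes in control, 83 and 189, with 20 and 111 counts with Sox11 and 38 and 37 with Sox11K91A. In CPM these were 2.97 and 4.90 in control, 0.728 and 3.35 with Sox11, and 1.18 and 1.27 with Sox11K91A. Control and Sox11 overlapped, and both Sox11K91A libraries lay below control. The log2 fold change was -1.24 (SE 0.64, adjusted p = 0.201) with Sox11 and -1.67 (SE 0.67, adjusted p = 0.148) with Sox11K91A. The 2 highest levels were those of the libraries with the fewest *Xist* counts. Without these 2 libraries the log2 fold change of *Crym* was -1.997 (adjusted p = 0.0553) with Sox11 and -1.27 (adjusted p = 0.0469) with Sox11K91A. With all 6 libraries and a block for these 2 it was -0.97 (adjusted p = 0.156) and -0.93 (adjusted p = 0.244), and neither passed. Without Sox11 replicate 1 alone, the difference with Sox11 was -0.24 (adjusted p = 0.713).

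In all, 5 of the 10 genes had too few counts to be tested, with at most 6 in any library. *Cryba2* passed the filter on low counts through the libraries with a Sox11 virus, and *Cryba4* and *Crybb3* mainly through the control libraries, so that a difference was built into their passing. Of the 4 genes tested against control, *Cryba4*, *Crybb3*, *Cryab* and *Crym*, 0 passed an FDR under 0.05 with a fold change above 1.2 in either comparison. Over all genes tested, 20.1% passed with Sox11 (9.96% up and 10.2% down) and 10.6% with Sox11K91A (5.81% up and 4.81% down). Without adjustment, p was under 0.05 for 3 of the 4 with Sox11 (*Cryba4*, *Crybb3* and *Cryab*), where 38% of all genes were, and for 2 of the 4 with Sox11K91A (*Crybb3* and *Crym*), where 30.6% were. The median log2 fold change of the 4 genes was -1.85 and -1.87, against 0.009 and 0.017 over all genes tested. The quasi-likelihood test of edgeR also passed 0 of the 4 in both comparisons, whereas DESeq2 passed *Crybb3* with Sox11 (log2 fold change -2.39, adjusted p = 0.0455) and with Sox11K91A (-2.55, adjusted p = 0.0441). Single libraries also decided these calls. *Crybb3* passed with both viruses without control replicate 1 (-3.07 with adjusted p = 0.0307, and -3.03 with adjusted p = 0.0390), and *Cryba4* passed with Sox11 without Sox11 replicate 1, which left the library with 0 counts (-5.37, adjusted p = 0.0426). Other libraries left out moved the values the other way. Without control replicate 2, *Crybb3* was at -1.53 (adjusted p = 0.223) with Sox11 and -1.49 (adjusted p = 0.276) with Sox11K91A, and without Sox11 replicate 2, *Cryba4* was at -1.17 (adjusted p = 0.440) with Sox11. Without both low *Xist* libraries, the log2 fold changes with Sox11 and Sox11K91A were -1.35 (adjusted p = 0.269) and -2.25 (adjusted p = 0.0612) for *Cryba4*, -0.81 (adjusted p = 0.458) and -1.49 (adjusted p = 0.126) for *Crybb3*, and -1.56 (adjusted p = 0.233) and -0.46 (adjusted p = 0.576) for *Cryab*. Both virus comparisons use the same 2 control libraries and are not independent of each other.

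**Figure D3:**
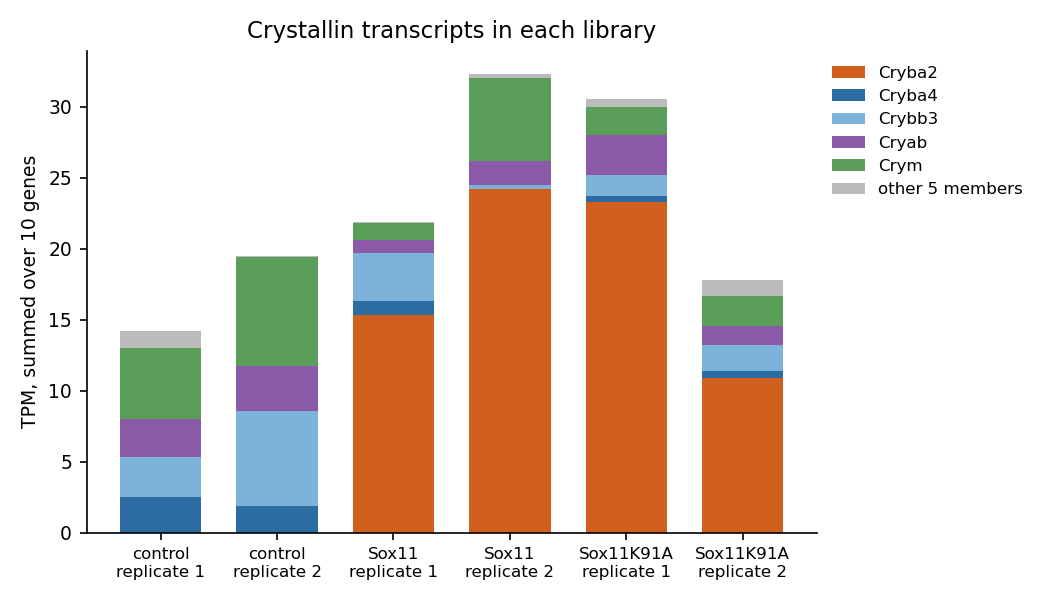
TPM of the 10 crystallin genes stacked in each of the 6 libraries. *Cryba2* fills none of the control bars and between 61.0% and 76.2% of the bars of the other 4 libraries, and the remaining genes together are lower there.

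Per transcript length, *Cryba2* went from 0 in control to the highest mean of the 10 genes with either virus, the contrast by which it was chosen. In control, *Crym* was at 6.33 ± 1.85 TPM, *Crybb3* at 4.74 ± 2.69 TPM, *Cryab* at 2.97 ± 0.375 TPM and *Cryba4* at 2.21 ± 0.417 TPM (SD, n = 2), with *Cryba2* at 0, and each of these 4 overlapped its neighbour in the order within 1 SD. With Sox11, *Cryba2* was at 19.8 ± 6.28 TPM and *Crym*, the next, at 3.55 ± 3.25 TPM. *Crybb3* (1.81 TPM), *Cryab* (1.285 TPM) and *Cryba4* (0.48 TPM) followed in the same order as in control. With Sox11K91A, *Cryba2* was at 17.1 ± 8.76 TPM, and *Crym* and *Cryab* followed at 2.06 TPM each. *Cryba2* made up 70.1% and 75.0% of the summed TPM of the 10 genes in the Sox11 libraries and 76.2% and 61.0% in the Sox11K91A libraries. The other 9 genes together were at 14.2 and 19.5 TPM in control, 6.56 and 8.10 TPM with Sox11, and 7.28 and 6.95 TPM with Sox11K91A. Their sum was therefore lower in all 4 libraries with a Sox11 virus than in both control libraries, while *Cryba2* was higher in all 4.

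No crystallin differed between the 2 viruses by the test. For *Cryba2*, Sox11K91A against Sox11 gave a log2 fold change of -0.23 (SE 0.41, 95% interval -1.19 to 0.73, adjusted p = 1.00 by limma-voom), so that a difference of up to about that interval was not detectable with 2 replicates per group. The values of *Cryba2* overlapped between the viruses, and the sign of the difference turned without Sox11 replicate 2 (0.09), without Sox11K91A replicate 2 (0.28), and without or with a block for the low *Xist* libraries (0.09 and 0.07). For *Cryba4*, *Crybb3*, *Cryab* and *Crym* the log2 differences were 1.30, 0.02, 0.67 and -0.43, each with adjusted p = 1.00. Of all genes tested, 0% passed this comparison in limma-voom, 0.686% had an unadjusted p under 0.05, and DESeq2 passed 2 genes.

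Among the other genes named for crystallins, the γ-crystallins of the lens core had almost no counts. *Crygb*, *Crygc*, *Crygd*, *Cryge* and *Crygf* had no counts in any of the 6 libraries, and *Cryga* had 1. Of the 14 other crystallin-named genes 7 could be tested, and 2 rose and 1 fell with Sox11, while 1 rose and 0 fell with Sox11K91A, beside 20.1% and 10.6% of all genes called in either direction. The median log2 fold change of these 7 was -0.29 and -0.33. *Crybg1*, a large protein with βγ-crystallin domains that is also known as Aim1, had 226 and 334 counts in control, 1372 and 1384 with Sox11, and 1408 and 1363 with Sox11K91A. Its replicates lay close together and far from control, and it rose by a log2 fold change of 2.44 with Sox11 (SE 0.19, adjusted p = 0.00753) and 2.42 with Sox11K91A (SE 0.19, adjusted p = 0.00919). *Crybg3*, with the same kind of domains, fell with Sox11 (log2 fold change -1.22, adjusted p = 0.0319) and was at -1.10 with Sox11K91A, which did not pass (adjusted p = 0.0549). *Cryz*, zeta-crystallin, an NADPH-dependent quinone reductase, rose with Sox11 by 0.83 (adjusted p = 0.0395) and stood at 0.38 (adjusted p = 0.300) with Sox11K91A, a difference between the viruses that did not pass (adjusted p = 1.00).

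Among the genes named for small heat shock proteins, *Hspb1* and *Hspb8* fell with both viruses. Of 8 genes 4 were tested, and 0 rose and 2 fell in each comparison, beside 10.2% of all genes that fell with Sox11 and 4.81% with Sox11K91A, with a median log2 fold change of -2.18 with Sox11 and -1.69 with Sox11K91A. *Hspb1* (Hsp27), a chaperone that protects the actin cytoskeleton, had 820 and 928 counts in control, 203 and 62 with Sox11, and 143 and 209 with Sox11K91A. The control values of *Hspb1* were above all 4 others, with a log2 fold change of -2.88 (adjusted p = 0.0169) and -2.23 (adjusted p = 0.0326). *Hspb8*, which works with Bag3 in clearing misfolded proteins, had 837 and 1211 counts in control, 162 and 35 with Sox11, and 124 and 199 with Sox11K91A. Its log2 fold change was -3.69 (adjusted p = 0.0144) and -2.59 (adjusted p = 0.0283). *Hspb6* was at -1.48 (adjusted p = 0.0515) and -1.14 (adjusted p = 0.113), and neither passed. *Hspb11*, the last of the 4, did not pass either, at mean levels of 7.42, 4.98 and 5.10 CPM in control, Sox11 and Sox11K91A. Its place in this list rests on its name. The lowest counts of *Hspb1* and *Hspb8* were those of Sox11 replicate 2, which also had the lowest sum of RGC markers.

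**Figure D4:**
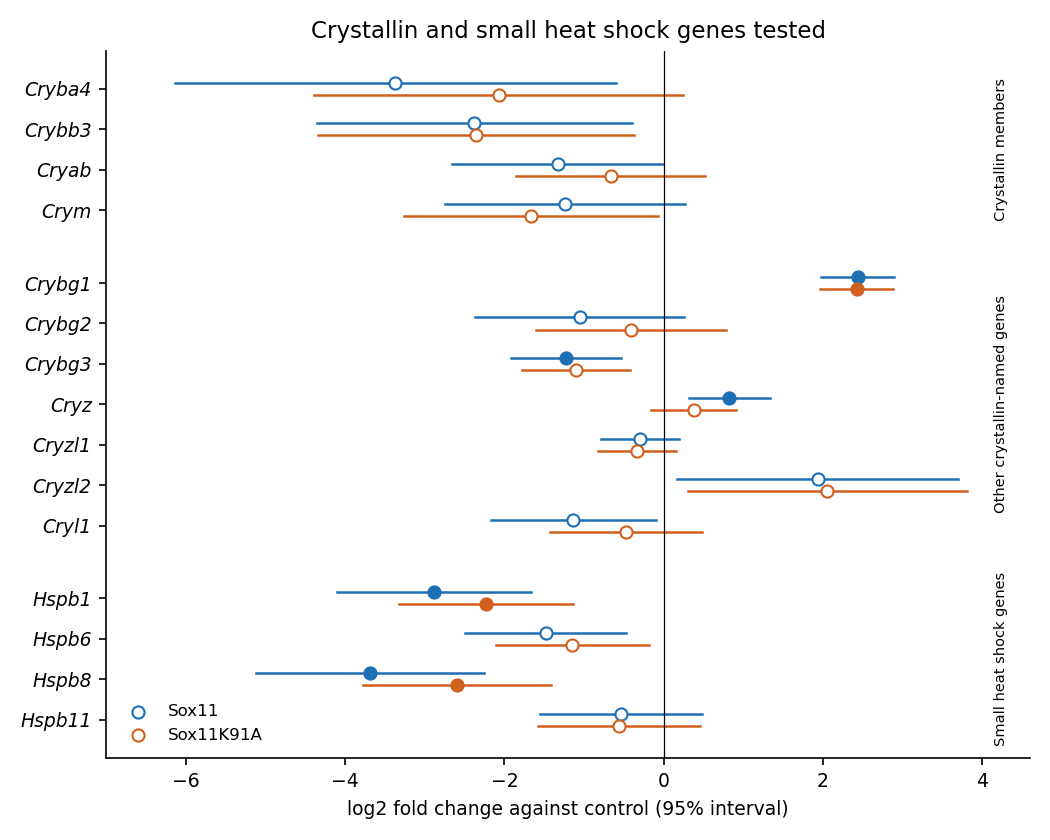
Log2 fold change against control with its 95% interval for the 4 crystallins tested, the other crystallin-named genes and the small heat shock genes, for Sox11 (blue) and Sox11K91A (orange), with filled points for genes past the threshold. The 4 crystallins lie left of 0 with open points, *Crybg1* lies at 2.44 and 2.42, and *Hspb1* and *Hspb8* lie between -3.69 and -2.23.

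Regulators of lens crystallins that passed the test went in both directions. Of 18 such genes 13 were tested, and 3 rose and 1 fell with Sox11, while 1 rose and 1 fell with Sox11K91A, beside 20.1% and 10.6% of all genes called in either direction. The median log2 fold change of the 13 was -0.04 and 0.05. *Prox1*, a homeodomain factor needed for lens fibre elongation and for several retinal cell types, had 231 and 122 counts in control, 896 and 1252 with Sox11, and 1320 and 740 with Sox11K91A. It rose by 2.85 on the log2 scale with Sox11 (SE 0.45, adjusted p = 0.0135) and by 2.73 with Sox11K91A (SE 0.45, adjusted p = 0.0212). The heat shock factor *Hsf2* rose with Sox11 by 0.98 (adjusted p = 0.0284) and was at 0.81 (adjusted p = 0.0624) with Sox11K91A. *Creb1*, a cyclic AMP-responsive factor, rose with Sox11 by 0.87 (adjusted p = 0.0280) and was at 0.65 (adjusted p = 0.0758) with Sox11K91A. *Mafg*, a small Maf protein, was lower with both viruses, by a log2 fold change of -0.72 (adjusted p = 0.0190) and -0.66 (adjusted p = 0.0326). *Mafa*, a large Maf factor, was too low to test, with 0 and 0 counts in control, 7 and 1 with Sox11, and 20 and 4 with Sox11K91A. *Sox1* and *Foxe3*, factors of the early lens, had no counts in any library.

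No gene of the lens fibre list passed the test. Of 12 such genes 4 were tested. *Lim2* and *Grifin* had no counts in any library, *Gja3* and *Dnase2b* had 1 count each in all, and *Mip*, the water channel of lens fibres, had 14 counts in Sox11 replicate 2 and 0 in the other 5 libraries. The summed level of the 12 genes was 38.5 to 40.8 CPM in control, 39.2 to 40.1 CPM with Sox11 and 38.6 to 40.1 CPM with Sox11K91A, most of it *Tdrd7*. *Bfsp2*, a filament protein of lens fibres named here after its values were seen, had 0 and 3 counts in control, 16 and 8 with Sox11, and 29 and 10 with Sox11K91A, and its log2 fold change was 3.22 (adjusted p = 0.106) and 3.83 (adjusted p = 0.0853). It passed the filter on low counts through the libraries with a Sox11 virus, so that a difference was built into its passing.

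Genes of thyroid hormone, the ligand of *Crym*, included 6 that were tested, of which 0 rose in either comparison, 2 fell with Sox11 and 1 fell with Sox11K91A, beside 10.2% and 4.81% of all genes. *Thrb*, thyroid hormone receptor beta, had 364 and 570 counts in control, 96 and 55 with Sox11, and 58 and 90 with Sox11K91A. Its log2 fold change was -2.56 (adjusted p = 0.0128) and -2.57 (adjusted p = 0.0193). *Dio2*, the deiodinase that activates thyroid hormone, had 31 and 24 counts in control, 3 and 0 with Sox11 and 8 and 5 with Sox11K91A, and it fell with Sox11 (log2 fold change -4.23, adjusted p = 0.0394) but did not pass with Sox11K91A (-1.87, adjusted p = 0.161). *Dio2* passed the filter on low counts through the control libraries, so that a difference was built into its passing.

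Genes most correlated with *Cryba2*, or like it absent in control and present with both viruses, were not crystallins. Over the 6 libraries, the highest Pearson correlations of log2(CPM + 1) with *Cryba2* among 15746 genes were those of *Dhx35* (0.9996), *Scube1* (0.999), *Kctd13* (0.999), *Nhlh2* (0.998) and *Rgs16* (0.998). These are descriptions over 6 points in 3 groups that share the step from control to virus, and a correlation takes no account of the size of the step. *Dhx35* was present in control, at 21.0 and 21.0 CPM, and was at 29.1 to 34.1 CPM with either virus. *Kctd13* was at 133 and 132 CPM in control and 204 to 234 CPM with either virus. *Rgs16*, a regulator of G protein signalling, was at 1.39 and 0.960 CPM in control, 22.3 and 45.4 CPM with Sox11, and 39.1 and 16.9 CPM with Sox11K91A. Of 25035 genes with at most 3 counts over both control libraries, 19 had at least 10 counts in each of the other 4. Most of the 25035 could not qualify, since only 23413 of the 43346 Ensembl genes had a count in any library. *Cryba2*, which was chosen by this same pattern, had the highest mean level of the 19, 4.64 CPM. *Gm26675* followed at 3.56 CPM, *Gm16401* at 2.40 CPM, *Mpzl2*, an adhesion protein of epithelia, at 1.79 CPM and *Nr6a1os* at 1.50 CPM. *Capn3*, a calpain with lens forms, was also among the 19 and was singled out after its values were seen, with 1 and 0 counts in control, 25 and 30 with Sox11, and 26 and 23 with Sox11K91A.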

How the data were processed

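RNA-seq was done on cultured RGCs with control, Sox11 or Sox11K91A AAV, in 6 libraries. Per the labels and the methods, the authors aligned reads to mm10 with STAR and quantified genes with RSEM on DNAnexus. Versions, annotation and strand setting were not given in the sources used here. The authors deposited expected counts per gene, not normalized, and TPM values, scaled by transcript length and library. Depth was 27521981 to 37061718 expected counts per library. The tables also list 26248 numbered entries with 1 count and 96 spike-in entries with 0 counts, which were left out. GENCODE M21 named 98.0% of the 43346 Ensembl genes.

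Counts were rounded, filtered with filterByExpr, scaled by TMM (edgeR 4.0.16, factors 0.985 to 1.04) and tested with limma-voom (limma 3.58.1, R 4.3.3) over all 6 libraries and 15747 genes, with two-sided Benjamini-Hochberg adjusted p-values, an FDR under 0.05 and a fold change above 1.2. Alternatives included DESeq2 1.42.0 and 3 settings added after the data were seen. Sequence overlap used BLAST+ 2.17.0.

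The genes and lists were chosen with earlier results of these data known. Genes named are the 10 crystallins, genes of the lists that passed or had 0 counts, neighbours, the 5 genes most correlated with *Cryba2* and the 5 highest genes absent in control and present with both viruses. Other genes are named as background or after their values were seen. Replicate numbers are shared across groups, but deviations of same-numbered libraries correlated at 0.296, -0.0538 and -0.421 in the 3 pairs of groups, so the numbers do not establish pairs.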

Additional observations from a re-analysis of the deposited data

How the results depend on the processing

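Over 16 other settings and 3 added after the data were seen, no log2 fold change of *Cryba4*, *Crybb3*, *Cryab* or *Crym* against control changed sign. With at least 10 counts required in every library, *Cryba2*, *Cryba4* and *Crybb3* had no value, and *Cryba4* and *Crybb3* had none between the viruses in a fit of those 2 groups alone. Of the 4 crystallins tested against control, the number passing was 0 in the fit reported. It was 1 (*Crybb3*) with DESeq2 in each comparison, 0 to 1 when a replicate was left out in either comparison, and 1 (*Crym*) with Sox11K91A when the libraries with low *Xist* counts were left out together. The number of all genes passing with Sox11 was 3171, and it was 979 with sample quality weights, 1598 in a fit of only the 2 groups compared, 2094 without the low *Xist* libraries, and 0 to 3753 when a replicate was left out, with 0 without Sox11 replicate 2. With Sox11K91A it was 1672, and it was 3144 with DESeq2, 4108 without the low *Xist* libraries, 2894 with a block for them, 2753 with a replicate block in which the Sox11K91A numbers were exchanged, and 0 to 2563 when a replicate was left out, with 0 without control replicate 2. Where a group was left with 1 library, its spread is taken to be that of the other groups. Between the viruses DESeq2 passed 2 genes against 0. With the replicate block as labelled, 2679 and 1402 genes passed against control and no crystallin did. The differences between the viruses for *Cryba2*, *Cryba4*, *Crybb3* and *Crym*, none of which passed, changed sign in 13 cases, 5 of them without a replicate. The cause of these shifts was not tested. Depth limits what can be seen of the crystallins, since 5 of the 10 had at most 6 counts in any library.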
